A study of Homo sapiens with 6 samples.

Results

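The set described here holds the genes of the proteins of the cytosolic ribosome together with their paralogs, in the established human line KYSE510, grown from a squamous carcinoma of the oesophagus. Members were taken by symbol: RPL or RPS followed by a number, with or without an ending of A, X, L, L1 or AL, plus RPLP0, RPLP1, RPLP2 and RPSA. This gave 85 of the 62700 genes in the count table. Of these, 77 were canonical ribosomal protein genes, 46 of the large (60S) and 31 of the small (40S) subunit, and 8 were paralogs whose symbol ends in L, L1 or AL. FAU and RACK1 encode ribosomal proteins under other symbols and were not members. Their log2 fold changes of -0.19 and -0.07 did not pass the test used below.

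The libraries compared were 3 of cells with an shRNA named shRNH1, whose genotype is labelled as a knockdown of RNH1, and 3 of cells with an shRNA named shControl, whose genotype is labelled WT. All 6 came from the same line, grown in medium with serum, and were labelled as biological replicates, and the knockdown was made as a model of induced R-loops, which are RNA:DNA hybrids with a displaced DNA strand. How many shRNA sequences or cell clones stand behind each group is not stated in the labels. Each library was made from RNA selected for poly(A) tails and gave 33420444, 33421217 and 31394687 counts for shRNH1 and 40225486, 41103220 and 40461210 for shControl.

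The target was checked first. RNASEH1, the gene of the nuclease that cuts the RNA strand of RNA:DNA hybrids, had 7.40, 7.03 and 7.03 counts per 1000000 (CPM) in shRNH1 libraries against 34.9, 32.5 and 27.5 CPM in shControl libraries. It fell by 2.14 on the log2 scale (edgeR's quasi-likelihood fit, p-values adjusted by Benjamini-Hochberg over 19682 genes, adjusted p = 1.61e-13). The gene whose official symbol is RNH1, a ribonuclease inhibitor, had a log2 fold change of -0.19 that did not pass the test (edgeR, adjusted p = 0.221). Of the squamous markers KRT5, KRT14, TP63, DSG3 and SFN, all 5 were above the filter on low counts, and their summed level was 557 to 583 CPM in shRNH1 and 678 to 804 CPM in shControl libraries. KRT5 (-1.33), KRT14 (-1.40) and SFN (-0.37) fell. The summed level of 5 leukocyte markers was 6.49 to 8.93 CPM in shRNH1 and 5.42 to 6.87 CPM in shControl libraries, and that of 5 endothelial markers, with KDR at 0, was 20.6 to 23.4 CPM in shRNH1 and 21.1 to 22.7 CPM in shControl libraries. Of 5 fibroblast markers, COL1A2 and DCN were at 0, and the sum of 111 to 133 CPM in shRNH1 against 62.5 to 71.8 CPM in shControl libraries was mostly COL1A1 (123 ± 12.5 CPM in shRNH1 against 62.5 ± 5.01 CPM in shControl, SD, n = 3 each). COL1A1 rose by 0.98 and PDGFRB fell by 0.91, and of 4 tested endothelial markers ESAM (1.26) and PECAM1 (0.51) rose. The part of these markers in the results below was not tested. In such bulk libraries a change per cell and a change in which cells were present cannot be told apart.

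The ribosome is built from rRNA and a fixed set of proteins, most of them present once per particle, so cells make these proteins in matched amounts. The mRNAs of most ribosomal proteins begin with a 5′ terminal oligopyrimidine tract, a C followed by an unbroken run of C and T (U in the RNA), through which LARP1 and the kinase mTORC1 control their translation and stability. In mammalian cells surplus RPL5 and RPL11, bound to 5S rRNA, can bind and block the ubiquitin ligase MDM2. Paralogs such as RPL3L and RPL10L are known for tissue-restricted use, in muscle and testis.

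The start of each gene was read from RefSeq promoter sequences (GRCh38.p14), which matched 62 of the 77 canonical genes and 6 of the 8 paralogs. The run searched for was a C at the annotated first base followed by at least 4 bases that are each C or T, on the gene's own strand only. It was present in 42 of the 62 canonical genes (67.7%), against 4.04% of all 27305 promoter sequences and 5 of 69 genes of mitochondrial ribosomal proteins. The 4 genes of the large subunit's stalk, described first below, all carried it and are shown to make the run visible. Each window has 10 bases before the start in lower case and 20 bases from it, and the capitals mark the run from the first base on. They lie at chr12:120201092-120201121 (RPLP0, minus strand), chr15:69452808-69452837 (RPLP1, plus strand), chr11:809957-809986 (RPLP2, plus strand) and chr9:127451387-127451416 (RPL12, minus strand).
RPLP0: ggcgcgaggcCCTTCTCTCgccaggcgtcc
RPLP1: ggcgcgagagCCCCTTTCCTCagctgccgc
RPLP2: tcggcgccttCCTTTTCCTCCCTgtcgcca
RPL12: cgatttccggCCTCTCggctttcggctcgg

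A match describes the annotated start only, and the start used in these cells was not measured. In RPLP0 and RPLP2 the unbroken run begins before the annotated start, at positions -1 and -4. Of the canonical genes that fell, 10 of the 13 with a promoter sequence carried the run, and of those not called 32 of 49 did. RPS2 and RPS15A, which rose, had no promoter sequence and are absent here, as is RPL37, which fell. The 42 genes with the run had a median log2 fold change of -0.11 and the 20 without it -0.10.

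All 77 canonical genes had enough counts to be tested. With edgeR's quasi-likelihood test and Benjamini-Hochberg adjustment at 0.05, 16 were lower in shRNH1 cells and 2 were higher, 23.4% of them, against 27.6% of all 19682 genes tested, where 12.3% were lower and 15.3% higher. Most changes were small. The log2 fold changes lay between -0.47 (RPS29) and 0.38 (RPS2), 56 of 77 were below 0, and the median was -0.09 (quartiles -0.24 and 0.01), against 0.02 over all genes. The 3 shRNH1 values lay wholly apart from the 3 shControl values for 17 canonical genes, 14 of them lower in shRNH1, where 40.0% of all genes tested had groups that did not overlap and 18.6% did so on the lower side.

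**Figure D1:**
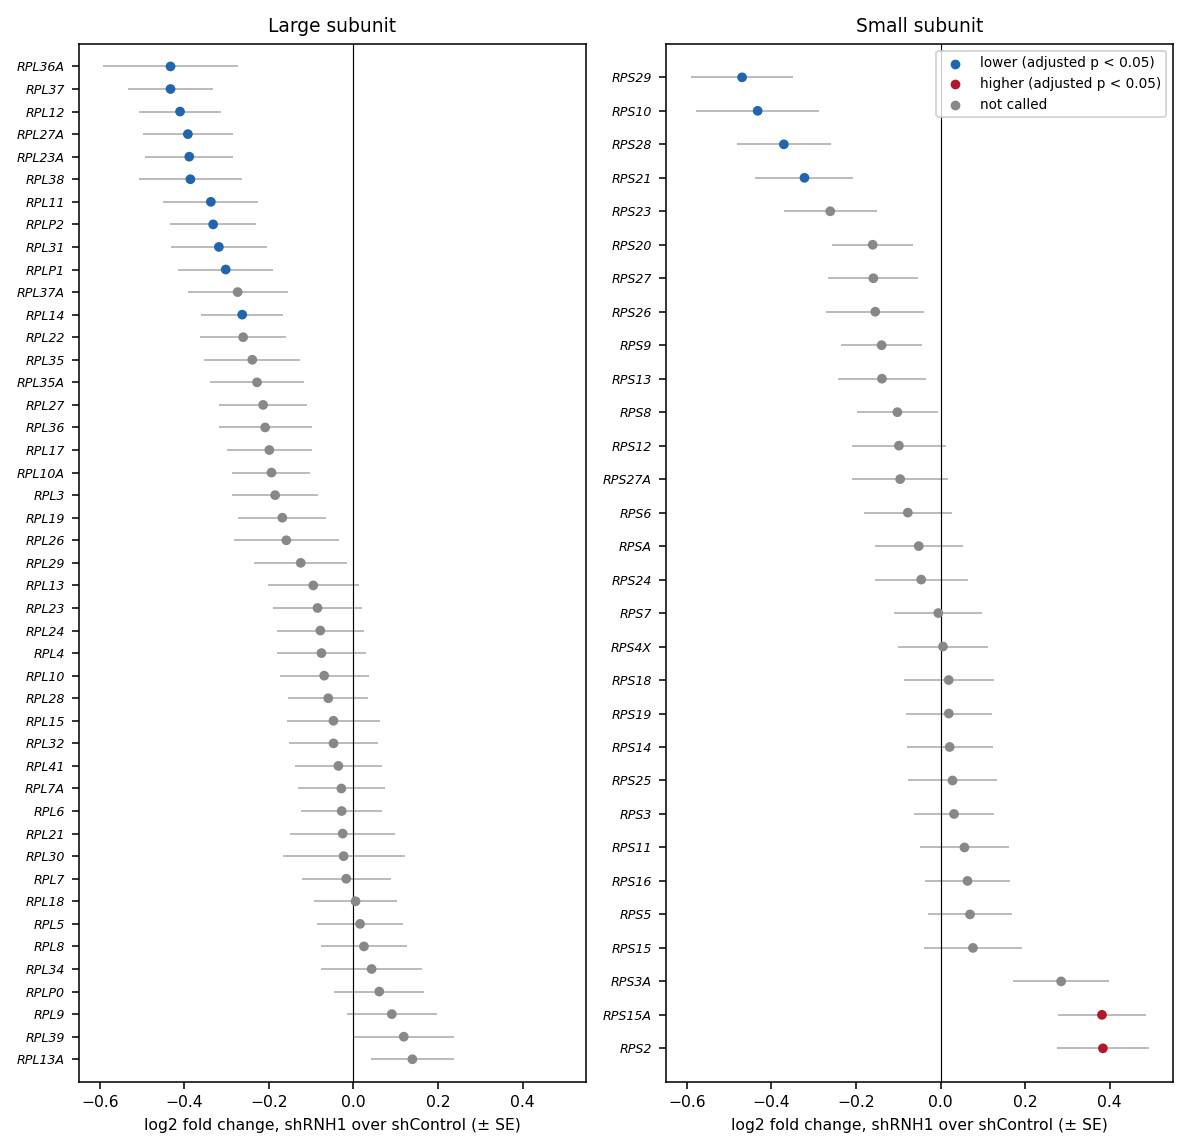
Log2 fold change, shRNH1 over shControl, of the canonical ribosomal protein genes, all but 1 of each subunit (x axis, bars ± SE of the fit), ordered within the large subunit (left) and the small subunit (right); blue marks genes lower, red genes higher at an adjusted p under 0.05 in edgeR, and grey genes not called. All 11 called genes of the large subunit lie below 0, and the small subunit has 4 of its 5 lower genes drawn below and 2 above.

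The fall depended in part on 1 library. shRNH1 replicate 2 had the lowest CPM of its group for 67 of the 77 canonical genes. The median canonical gene stood at 0.03, -0.31 and -0.02 in shRNH1 replicates 1, 2 and 3 and at 0.05, -0.06 and -0.003 in shControl replicates 1, 2 and 3 (log2 CPM minus the gene's shControl mean). Across the 77 genes the deviation of shRNH1 replicate 2 from its group mean had a Pearson correlation of 0.56 with the GC content of the transcript, and that of shControl replicate 3 one of 0.63. Offsets that took out trends of the fold change with GC content and length gave 16 canonical genes lower and 2 higher. Of these 18 calls 16 were shared with the fit without them. These offsets shift all libraries of a group alike, so they cannot take out the deviation of 1 library. The part of a single library's trend with GC content in the calls was not tested, but the library itself was left out next. Without shRNH1 replicate 2, edgeR called 7 canonical genes lower (among them RPL12, RPLP2, RPL37, RPS29, RPL23A and RPL27A) and 4 higher (RPS15A, RPS3A, RPS2 and RPL39), and the median was 0.02. Scaling by library size alone, which moved the median of all genes to 0.13, gave 7 lower, 4 higher and a canonical median of 0.02; relative to all genes the canonical median was -0.10 under either scaling. Taking out the trend of the fold change with expression level gave 9 lower and 5 higher, the higher ones being RPS2, RPS15A, RPS3A, RPL13A and RPLP0, and a median of 0.04, or 0.05 relative to all genes. The median relative to all genes was 0.003 without shRNH1 replicate 2. Over the whole table, the fit without that library called 2315 of 20731 genes lower and 2895 higher. Of 19682 genes, library size alone called 1433 lower and 4065 higher, and the offset for expression level 2403 lower and 2783 higher.

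In the large subunit 11 of 46 genes fell and edgeR called 0 higher, 23.9% called. Of all genes tested 27.6% were called, 12.3% lower and 15.3% higher. At an unadjusted p under 0.05 17 large subunit genes were lower and 0 higher, and DESeq2 called 11 lower and 0 higher. The median was -0.11 for the large and -0.05 for the small subunit, where 5 of 31 genes fell and 2 rose, 22.6% called. Without shRNH1 replicate 2 the large subunit had 5 lower and 1 higher, and the small subunit 2 lower and 3 higher. The difference between the subunits was not tested.

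The stalk recruits the GTPases that drive translation, with RPL12 and RPLP0 at its base and RPLP1 and RPLP2 as its mobile arms. Of these 4 genes 3 fell, 75% called against 27.6% of all genes, of which 12.3% were lower. The list was chosen with earlier results of these data known. Without shRNH1 replicate 2, or with library size alone, 2 of the 4 were lower. With the expression-level trend taken out 1 was lower and 1 higher. RPL12 had 320, 261 and 277 CPM in shRNH1 libraries against 395, 359 and 386 CPM in shControl libraries, and fell by 0.41 on the log2 scale (SE 0.10, edgeR adjusted p = 0.00218). Its groups did not overlap. RPLP2 had 515, 488 and 434 CPM in shRNH1 libraries against 589, 553 and 666 CPM in shControl libraries, again without overlap, and fell by 0.33 (edgeR, adjusted p = 0.0146). RPLP1 had 473, 336 and 394 CPM in shRNH1 libraries against 553, 452 and 478 CPM in shControl libraries, so that shRNH1 replicate 1 lay within the shControl range. It fell by 0.30 (edgeR, adjusted p = 0.046) and was not called without shRNH1 replicate 2 (-0.19, adjusted p = 0.231). RPLP0, to which both arms bind, had 2390, 1922 and 2358 CPM in shRNH1 libraries against 2143, 2076 and 2174 CPM in shControl libraries, a log2 fold change of 0.06 that did not pass (edgeR, adjusted p = 0.726). With the expression-level trend taken out, RPL12 was lower (-0.27, adjusted p = 0.04) and RPLP0 higher (0.29, adjusted p = 0.0436), and RPLP2 and RPLP1 did not pass. RPLP2 also did not pass without shRNH1 replicate 3 (-0.27, adjusted p = 0.13). The starts of all 4 genes carry the pyrimidine run printed above.

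RPL37, a small zinc-binding protein of the large subunit, was the canonical gene called in all 19 alternative settings. It had 112, 83.9 and 97.1 CPM in shRNH1 libraries against 139, 127 and 130 CPM in shControl libraries, with no overlap. It fell by 0.43 (SE 0.10, edgeR adjusted p = 0.00172), and by 0.32 to 0.54 over the alternatives.

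At the rim of the tunnel through which the new protein leaves, 2 of 8 listed genes fell, RPL23A and RPL31, a share of 25% near the 27.6% of all genes called. RPL23A, a docking site of the signal recognition particle, had 158, 119 and 140 CPM in shRNH1 libraries against 179, 165 and 201 CPM in shControl libraries, without overlap, and fell by 0.39 (edgeR, adjusted p = 0.00598). RPL31 had 85.4, 63.4 and 83.3 CPM in shRNH1 libraries against 104, 80.5 and 105 CPM in shControl libraries. Its groups overlapped through shControl replicate 2, and it fell by 0.32 (edgeR, adjusted p = 0.0368) but was not called without shRNH1 replicate 2 (-0.19, adjusted p = 0.231). The other 6 genes of the list did not pass.

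RPL27A, a protein of the large subunit body, had 492, 354 and 423 CPM in shRNH1 libraries against 552, 531 and 582 CPM in shControl libraries and fell by 0.39 (edgeR, adjusted p = 0.00682). The groups did not overlap, and it did not pass with the expression-level trend taken out (-0.23, adjusted p = 0.113). RPL38, known in the mouse for its part in the translation of Hox mRNAs, had 62.0, 38.0 and 51.2 CPM in shRNH1 libraries against 70.4, 59.6 and 67.5 CPM in shControl libraries. shRNH1 replicate 1 lay within the shControl range, and RPL38 fell by 0.39 (edgeR, adjusted p = 0.0188) but was not called without shRNH1 replicate 2 (-0.21, adjusted p = 0.155). RPL14, also a protein of the large subunit, fell by 0.26 (edgeR, adjusted p = 0.0427), with 163 ± 17.3 CPM in shRNH1 against 196 ± 11.3 CPM in shControl libraries (SD, n = 3 each). It was called in 10 of 19 alternatives, and not without shRNH1 replicate 2 (-0.19, adjusted p = 0.167) or with the replicate block (-0.27, adjusted p = 0.0889).

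RPL5 and RPL11 join 5S rRNA in 1 particle on the large subunit. RPL11 had 117, 89.5 and 87.5 CPM in shRNH1 libraries against 111, 144 and 117 CPM in shControl libraries and fell by 0.34 (SE 0.11, edgeR adjusted p = 0.0255). shRNH1 replicate 1 was above shControl replicates 1 and 3. RPL5 had 278, 232 and 287 CPM in shRNH1 libraries against 282, 271 and 235 CPM in shControl libraries, a log2 fold change of 0.02 (SE 0.10, edgeR adjusted p = 0.934). The difference between the pair was not tested, and RPL11 was not called without shRNH1 replicate 2 (-0.27, adjusted p = 0.119) or with an offset for expression level (-0.26, adjusted p = 0.0906). Of the 3 genes in the list that holds MDM2, 1 was called, 33.3% against 27.6% of all genes tested. This was CDKN1A, an inhibitor of the cell cycle, which rose by 0.46. It had 142 ± 5.48 CPM in shRNH1 against 103 ± 2.21 CPM in shControl libraries (SD, n = 3 each, edgeR adjusted p = 0.00024). Any link of CDKN1A to RPL5 or RPL11 was not tested. MDM2 did not pass edgeR's test (-0.07, adjusted p = 0.622).

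**Figure D2:**
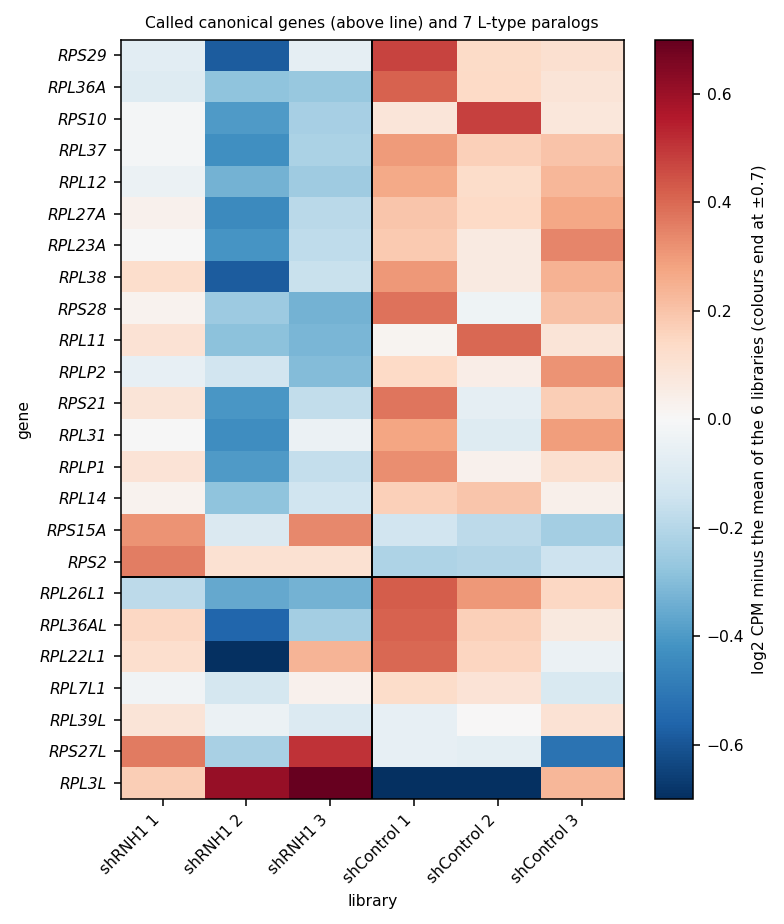
Log2 CPM of each gene in each library minus the gene's mean over the 6 libraries (colour, ending at ±0.7), for the called canonical genes, all but 1 of 18, above the line and the 7 tested L-type paralogs below it; columns are the 3 shRNH1 and then the 3 shControl libraries. shRNH1 replicate 2 is the bluest of its group for most of the lower genes, and RPS2, RPS15A, RPS27L and RPL3L run the other way.

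In the small subunit, RPS2 and RPS15A rose. RPS2, which lines the entry of the mRNA channel, had 5185, 4360 and 4365 CPM in shRNH1 libraries against 3491, 3511 and 3660 CPM in shControl libraries. All 3 shRNH1 libraries lay above all 3 shControl libraries, and RPS2 rose by 0.38 (SE 0.11, edgeR adjusted p = 0.00851). It was the most abundant member per coding kilobase, at 5275 CPM per kilobase in shRNH1 and 4043 in shControl cells. RPS2 took 13%, 12.97% and 11.68% of all canonical counts in shRNH1 replicates 1, 2 and 3, and 9.29%, 9.90% and 9.45% in shControl replicates 1, 2 and 3. All canonical genes together took 4.05%, 3.53% and 3.93% of counts in shRNH1 and 3.64%, 3.57% and 3.53% in shControl libraries; with RPS2 left out these were 3.52%, 3.07% and 3.47% in shRNH1 and 3.30%, 3.21% and 3.19% in shControl libraries. The call on RPS2 was lost without shRNH1 replicate 1 (0.30, adjusted p = 0.0596) and without shControl replicate 1 (0.37, adjusted p = 0.0717).

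RPS15A, a protein of the small subunit body, had 85.0, 63.6 and 86.3 CPM in shRNH1 libraries against 62.3, 60.1 and 57.8 CPM in shControl libraries. The groups did not overlap, though shRNH1 replicate 2 stood just above the shControl range, and RPS15A rose by 0.38 (SE 0.10, edgeR adjusted p = 0.00689). It was not called without shRNH1 replicate 1 (0.32, adjusted p = 0.0726) or without shRNH1 replicate 3 (0.31, adjusted p = 0.053). Another annotated gene on the same strand, AC138811.2, covers 41.5% of the bases of its principal transcript. RPS3A, at the platform of the small subunit, had 210, 161 and 241 CPM in shRNH1 libraries against 182, 155 and 164 CPM in shControl libraries and did not pass in the full comparison (0.29, edgeR adjusted p = 0.0634). Without shRNH1 replicate 2 its value was 0.43 (adjusted p = 0.0028).

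RPS29, a small zinc-binding protein in the head of the small subunit, had 41.9, 29.5 and 42.1 CPM in shRNH1 libraries against 61.1, 48.4 and 47.6 CPM in shControl libraries. The groups did not overlap, and it fell by 0.47 (SE 0.12, edgeR adjusted p = 0.00419). RPS21, one of the smallest proteins of the subunit, fell by 0.32 (edgeR, adjusted p = 0.0389), with 54.6 ± 9.38 CPM in shRNH1 against 68.3 ± 10.3 CPM in shControl libraries (SD, n = 3 each) and overlapping groups. It was called in 12 of 19 alternatives, and not without shRNH1 replicate 2 (-0.21, adjusted p = 0.227). Of 20 listed genes linked to Diamond-Blackfan anaemia, a failure of red cell formation caused by lowered ribosomal protein dosage, 6 were lower (among them RPS29, RPS28, RPL11, RPS10 and RPL31) and 1 higher (RPS15A), 35.0% called against 27.6% of all genes. Without shRNH1 replicate 2 these were 2 and 1. They were 4 and 1 when the counts of pseudogenes, described below, were added to their genes.

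RPS10, RPS28 and RPL36A also fell, and for them the assignment of reads to copies bore on the call. Ribosomal protein genes have many processed pseudogenes, copies of their mRNA inserted elsewhere in the genome. The table held 1589 pseudogenes named after members, 794 of them with counts, and their share of the summed counts of genes and pseudogenes was 2.53% to 3.06% over the 6 libraries. Of 199 that were tested, 6 were lower and 4 higher, where 12.3% of all genes tested were lower and 15.3% higher. For RPS28, at the exit of the mRNA channel, pseudogenes held 69.9% to 81.2% of the pooled counts, nearly all on RPS28P7 (chr11:82689559-82689768, plus strand, GRCh38).

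RPS28 had 43.3, 35.7 and 33.8 CPM in shRNH1 libraries against 55.3, 41.6 and 48.9 CPM in shControl libraries, with overlap through shRNH1 replicate 1, and fell by 0.37 (edgeR, adjusted p = 0.0126). RPS28P7 had 153, 115 and 146 CPM in shRNH1 libraries against 128, 120 and 141 CPM in shControl libraries, a log2 fold change of 0.09 that did not pass. With the counts of its pseudogenes added, RPS28 had a log2 fold change of -0.02 (edgeR, adjusted p = 0.902). RPL36A, near the exit site of tRNA on the large subunit, had 4.45, 3.90 and 3.94 CPM in shRNH1 libraries against 6.32, 5.23 and 5.05 CPM in shControl libraries and fell by 0.43 (edgeR, adjusted p = 0.0441). Pseudogenes held 51.9% to 59.9% of its pooled counts, and with these added it did not pass (-0.32, edgeR adjusted p = 0.0606). RPL36A was called in 6 of 19 alternatives.

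RPS10, a protein of the 40S head that is ubiquitinated on stalled ribosomes, had 7.46, 5.72 and 6.40 CPM in shRNH1 libraries against 7.96, 10.5 and 7.95 CPM in shControl libraries. The groups did not overlap, and it fell by 0.43 (edgeR, adjusted p = 0.0274) but was not called without shRNH1 replicate 2 (-0.34, adjusted p = 0.114). Pseudogenes held 26.7% to 30.7% of its pooled counts in shRNH1 and 16.2% to 21.1% in shControl libraries, and with these added it did not pass (-0.24, edgeR adjusted p = 0.186). With pseudogene counts added throughout, 13 canonical genes were lower and 2 higher. RPS2 rose in that fit as well, and its pseudogenes RPS2P5 (0.44, edgeR adjusted p = 0.000748) and RPS2P46 (0.44, adjusted p = 0.000698) rose by themselves. Whether reads of RPS2 mRNA were counted on these copies was not tested.

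**Figure D3:**
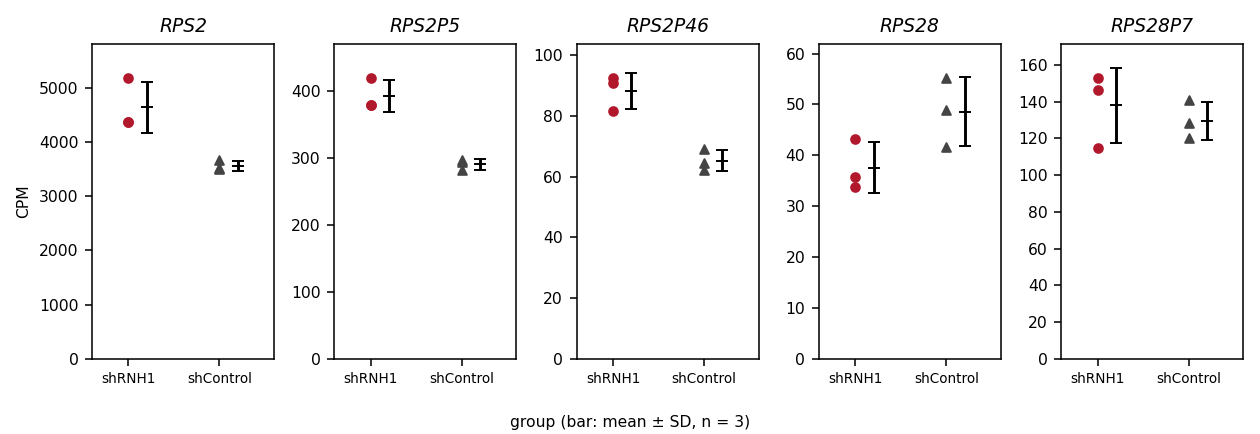
CPM in each library (points, linear axes from 0) with mean ± SD (bars, n = 3) in shRNH1 (left in each panel) and shControl cells (right), for RPS2 and 2 of its pseudogenes and for RPS28 and its main pseudogene. RPS2, RPS2P5 and RPS2P46 all lie higher in shRNH1, while RPS28 is lower on average in shRNH1 and RPS28P7 overlaps between the groups.

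Levels between members were compared as CPM per kilobase of coding sequence. After RPS2, RPL8 was among the 3 highest at 2463 in shRNH1 and 2422 in shControl cells, and it did not pass the test. The lowest were RPL17 (36.4 in shRNH1 and 41.7 in shControl), RPS10 (13.2 in shRNH1 and 17.8 in shControl) and RPL36A (12.9 in shRNH1 and 17.4 in shControl). A read-through gene on the same strand shares 91.0% of the bases of the principal transcript of RPL17, 77.0% of that of RPS10 and 77.6% of that of RPL36A. Those genes, RPL17-C18orf32, RPS10-NUDT3 and RPL36A-HNRNPH2, had 0 to 6 counts per library. Whether shared reads were left uncounted was not tested, so these low values are levels in the table and not necessarily of the mRNA. The ranks over the 77 genes were similar with other length scales, with a Spearman correlation of 0.88 against both the principal transcript and all exons joined.

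The lower calls were set beside coding length. Of the 9 canonical genes with a coding sequence of at most 300 bases, 5 fell (RPS29, RPS28, RPL38, RPL37 and RPS21) and the median was -0.32, where 9.82% of the 285 tested genes of that length fell and their median was 0.01. Between 300 and 450 bases 6 of 27 fell and 1 rose, against 13.3% of all tested genes of that length lower, and the median was -0.16. Between 450 and 600 bases 4 of 19 fell, against 12.4%, with a median of -0.10. Above 600 bases 1 of 22 fell and 1 rose, against 16.3% lower, with a median of -0.03. The shortest, RPL41, did not pass (-0.04), nor did RPL39 (0.12). Across the 77 genes the log2 fold change had a Pearson correlation of 0.35 with the log2 of the coding length, 0.49 with the mean log2 CPM and 0.10 with GC content. Points share libraries and these measures share genes, so these are descriptions. Without shRNH1 replicate 2, 2 of the 9 shortest genes fell and 1 rose, their median was -0.21, and the correlation with length was 0.26. With library size alone 2 of the 9 fell (median -0.21, correlation 0.35). With the expression-level trend taken out 4 fell (median -0.28, correlation 0.44). With pseudogene counts added 4 fell (median -0.27, correlation 0.31).

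**Figure D4:**
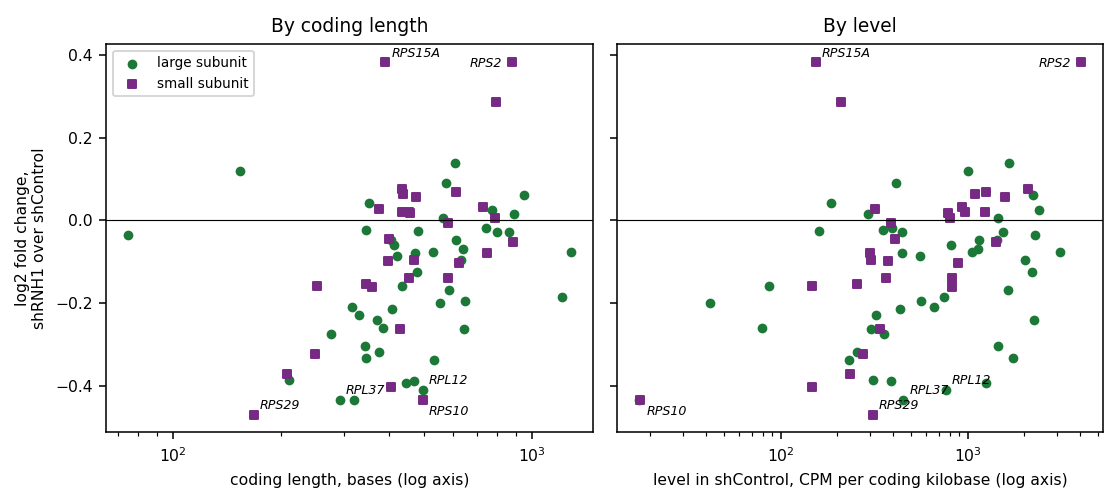
Log2 fold change, shRNH1 over shControl, of the 77 canonical genes (y axis) against coding length in bases (left, log axis) and against the level in shControl in CPM per coding kilobase (right, log axis); circles are large and squares small subunit genes. Points below -0.3 lie mostly at coding lengths under 500 bases, while RPS2 is both the most abundant gene and the highest point.

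Among the 8 L-type paralogs, RPL10L had 0 counts in all 6 libraries, which allows at most 3 counts per library, and 7 were tested. Of these 1 fell, 14.3%, against 27.6% of all genes, and edgeR called 0 higher; at an unadjusted p under 0.05 2 were lower and 1 higher, and DESeq2 called 1 lower and 0 higher. The median log2 fold change of the 7 was -0.08. The pyrimidine run was present at the annotated start of 1 of 6 paralogs with a promoter sequence, RPL22L1, and no test was made of this against the canonical genes, of which 20 of 62 lacked it. Within 20 bases on either side of the start, such a run began in 3 of 6 paralogs, 58 of 62 canonical genes and 50.8% of all promoter sequences. That of RPL36AL has 12 bases, begins at position -9 from the start and spans it. In RPL22, RPL22L1 and RPS27 the unbroken run likewise begins before the start, at positions -4, -4 and -2. For 5 pairs the windows are shown. In 3 only the canonical gene has the run at its first base. In RPL22 and RPL22L1 both have it there, and in RPL10 and RPL10L neither has. The windows are given with 10 bases before the start and 20 from it, RefSeq GRCh38.p14. Capitals mark the run searched for, from the first base on. They lie at chr5:172958719-172958748 (RPL26L1, plus strand), chr17:8383174-8383203 (RPL26, minus strand), chr15:63157458-63157487 (RPS27L, minus strand), chr1:153990752-153990781 (RPS27, plus strand), chr14:49620607-49620636 (RPL36AL, minus strand), chrX:101391001-101391030 (RPL36A, plus strand), chr3:170870176-170870205 (RPL22L1, minus strand), chr1:6199576-6199605 (RPL22, minus strand), chr14:46651762-46651791 (RPL10L, minus strand) and chrX:154398055-154398084 (RPL10, plus strand).
RPL26L1: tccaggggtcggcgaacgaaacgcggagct
RPL26: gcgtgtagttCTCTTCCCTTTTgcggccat
RPS27L: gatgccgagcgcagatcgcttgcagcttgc
RPS27: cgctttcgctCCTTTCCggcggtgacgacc
RPL36AL: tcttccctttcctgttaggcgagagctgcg
RPL36A: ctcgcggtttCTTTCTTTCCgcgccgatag
RPL22L1: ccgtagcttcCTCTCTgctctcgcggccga
RPL22: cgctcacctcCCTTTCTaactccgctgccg
RPL10L: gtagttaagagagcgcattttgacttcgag
RPL10: ccactctcagaaatatacgtctgtcacagt

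RPL26L1, a close copy of RPL26, was the paralog that fell. It had 9.11, 8.06 and 8.21 CPM in shRNH1 libraries against 13.8, 12.7 and 11.4 CPM in shControl libraries. The groups did not overlap, and it fell by 0.58 on the log2 scale (SE 0.12, edgeR adjusted p = 0.000689), to 0.668 of the shControl level. The fall was larger than that of any canonical gene, of which RPS29 was lowest (-0.47, SE 0.12), but the difference was not tested. RPL26L1 was called in all 19 alternatives, with values from -0.67 to -0.46. RPL26, at 36.7, 25.4 and 38.6 CPM in shRNH1 libraries against 42.5, 36.6 and 33.3 CPM in shControl libraries, did not pass (-0.16, edgeR adjusted p = 0.381).

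RPL36AL, which differs little from RPL36A, had 8.05, 4.95 and 6.18 CPM in shRNH1 libraries against 9.71, 8.18 and 7.63 CPM in shControl libraries. shRNH1 replicate 1 overlapped the shControl range, and the log2 fold change of -0.41 missed the threshold (edgeR, adjusted p = 0.0517). It passed in 9 of 19 alternatives, DESeq2 not among them. RPL22L1, the paralog of RPL22, had 6.10, 3.08 and 6.64 CPM in shRNH1 libraries against 7.42, 6.24 and 5.45 CPM in shControl libraries, with shRNH1 replicate 2 far below the rest, and did not pass (-0.28, edgeR adjusted p = 0.328). RPL22 itself lay apart between the groups, at 28.8, 23.0 and 24.9 CPM in shRNH1 libraries against 31.6, 30.0 and 30.3 CPM in shControl libraries, but also missed the threshold (-0.26, edgeR adjusted p = 0.0581).

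RPS27L, a close paralog of RPS27, had 5.19, 3.45 and 5.73 CPM in shRNH1 libraries against 3.88, 3.85 and 2.82 CPM in shControl libraries. Replicate 2 of shRNH1 lay within the shControl range, and the log2 fold change of 0.44 did not pass (SE 0.19, edgeR adjusted p = 0.0916). Without that library it was 0.64 (adjusted p = 0.0127). RPS27 had a log2 fold change of -0.16 that did not pass (edgeR, adjusted p = 0.294). RPL3L, the striated muscle form of RPL3, had 15, 21 and 22 counts in shRNH1 libraries against 9, 8 and 17 counts in shControl libraries, too few to separate the groups (0.95, SE 0.47, edgeR adjusted p = 0.138). It lies 4445 bases from RPS2 on chromosome 16. RPL7L1, an assembly factor related to RPL7, and RPL39L, a testis-enriched form of RPL39, had log2 fold changes of -0.08 and -0.03 and overlapping groups.

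The ratio of a paralog's counts to those of its canonical gene within a library does not depend on the scaling between libraries, and 7 pairs were compared. RPL26L1 had 248, 318 and 213 counts per 1000 counts of RPL26 in shRNH1 libraries against 325, 349 and 342 in shControl libraries, a log2 difference of -0.41 (SE 0.17). RPS27L had 139, 119 and 170 counts per 1000 counts of RPS27 in shRNH1 libraries against 94.2, 105 and 83.6 in shControl libraries, a log2 difference of 0.59 (SE 0.18). In these 2 pairs the groups did not overlap, and the exact two-sided permutation test gave p = 0.1, the smallest that 3 against 3 libraries allow, or 0.35 after Benjamini-Hochberg adjustment over the 7 pairs. The groups overlapped in the other 5 pairs. RPL36AL, the one paralog with more counts than its canonical gene, had 1810, 1270 and 1570 counts per 1000 counts of RPL36A in shRNH1 libraries against 1540, 1560 and 1510 in shControl libraries, a log2 difference of -0.004 (SE 0.15). Another annotated gene on the same strand, AC135178.2, covers 59.0% of the bases of the principal transcript of RPL26. Whether this bore on the counts of RPL26, or whether reads were shared between these close copies, was not tested.

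**Figure D5:**
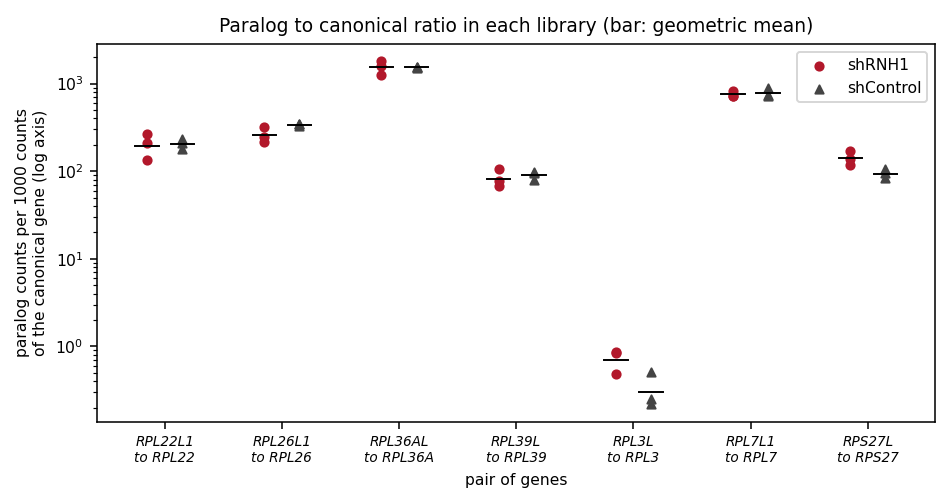
Counts of each paralog per 1000 counts of the canonical gene in each library (y axis, log scale) for 7 pairs, shRNH1 as circles on the left and shControl as triangles on the right of each pair, with bars at the geometric mean. The groups are apart for RPL26L1 to RPL26 (213 to 318 against 325 to 349) and for RPS27L to RPS27 (119 to 170 against 83.6 to 105).

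The position of members near the target was also examined. RPS7, a small subunit protein whose gene lies 16588 bases from RNASEH1 on chromosome 2, had 253, 186 and 240 CPM in shRNH1 libraries against 240, 225 and 217 CPM in shControl libraries (log2 fold change -0.01, edgeR adjusted p = 0.979). The groups overlapped, with both the highest and the lowest value in shRNH1.

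Listed genes that help to build ribosomes are set here beside the 12.3% of all tested genes that were lower and the 15.3% that were higher. Of 15 listed factors of 40S assembly 13 fell and edgeR called 0 higher, with 0 higher also at an unadjusted p under 0.05 and by DESeq2, and the median was -0.46. NOB1, the nuclease that makes the end of 18S rRNA, fell by 0.77 (57.5 ± 4.09 CPM in shRNH1 against 97.9 ± 3.46 CPM in shControl libraries, SD, n = 3 each). Of 20 factors of 60S assembly 12 fell and 0 rose, again with 0 higher at an unadjusted p under 0.05 and by DESeq2, and the median was -0.37. RRS1, which brings the 5S particle with RPL5 and RPL11 into the pre-60S particle, fell by 1.06. These lists had 12 of 15 and 10 of 20 lower without shRNH1 replicate 2. Of 14 chaperones and importers of ribosomal proteins 7 fell, among them RPS19BP1 (-0.81), which binds RPS19, TSR2 (-0.56), the chaperone of RPS26, and BCCIP (-0.57), which binds RPL23, and the median was -0.29. Of 77 tested mitochondrial ribosomal proteins 24 fell, led by MRPS2 (-0.61), with a median of -0.22; without shRNH1 replicate 2 there were 18 lower and 1 higher, and with library size alone 8 lower and 3 higher.

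Among 14 tested translation genes listed as having a 5′ terminal pyrimidine tract, 3 fell, 21.4% called against 27.6% of all genes. The run was found at the start of 7 of the 9 listed genes with a promoter sequence. Those that fell were PABPC1 (-0.61), which binds poly(A) tails, EEF1D (-0.47), an exchange factor of elongation, and EIF3F (-0.35), an initiation factor subunit. EEF1A1, the elongation factor that brings tRNA to the ribosome, had a log2 fold change of -0.20 and TPT1 one of 0.13, and neither passed edgeR's test (adjusted p = 0.163 and 0.331). Among 14 genes of mTORC1, LARP1 and MYC control 5 fell and 2 rose, 50% called against 27.6% of all genes, and 2 fell and 2 rose with the expression-level trend taken out. MAX (-0.52), the partner of MYC, EIF4EBP1 (-0.48), a translation repressor controlled by mTORC1, and LARP1 (-0.42) were lower in shRNH1 cells, and EIF4EBP2 (0.27), a related repressor, and TSC2 (0.27), an inhibitor of mTORC1, were higher. Of 15 genes that act on stalled or surplus ribosomes 3 fell, RNF25 (-0.44), USP10 (-0.27) and G3BP1 (-0.26), 20% called against 27.6% of all genes. Of the 15, 1 was lower without shRNH1 replicate 2, with library size alone or with the expression-level trend taken out.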

How the data were processed

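Poly(A)-selected RNA of KYSE510 cells was sequenced, per the labels' protocols. The authors deposited raw counts, with no normalization, for 62700 Ensembl IDs in 6 libraries of 31394687 to 41103220 counts. Per the submitters' processing notes, HISAT2, StringTie, DESeq2 and GRCh38 were used; versions, the counter, its strand setting and the annotation release are not stated there. Symbols were found for 62700 IDs. Positions and lengths came from GENCODE 29 (GRCh38), which holds 58207 of the IDs, and start sequences from RefSeq (GRCh38.p14). Levels per kilobase used the coding length, a scale chosen after seeing the data.

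Counts were tested with edgeR 4.0.16 in R 4.3.3 (quasi-likelihood, TMM, filterByExpr, no covariate, Benjamini-Hochberg over 19682 genes, threshold 0.05). CPM is counts per 1000000 of the TMM-scaled library. Ratios of paralogs were compared with an exact permutation test. The fit was tested on simulated data. Replicates differed by more than counting noise (chi-square per gene 6.61 to 21). Alternatives were DESeq2 1.42.0, limma 3.58.1 (voom), other scalings and filters, offsets for expression level and for GC content and length, thinning to the smallest library, protein-coding genes alone, a replicate block, leaving out each library and, added after seeing the data, adding pseudogene counts to their gene. The floor given for RPL10L covers counting error only. The SE and SD values include differences between replicate libraries.

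Members and lists were chosen with earlier results of these data known. Named genes were the paralogs and their canonical genes, the other canonical genes with the 14 smallest adjusted p past the threshold, all that rose past it, the 3 highest and 3 lowest by level, up to 3 called genes of each list, and read-through genes. RPS21, RPL14, RPLP0, RPLP1, RPL5, RPS3A, RPL13A, RPS7, RPL41, MDM2, TPT1, EIF4EBP2, TSC2, EEF1A1 and the pseudogenes were named after their values were seen. The values of some genes are not reported here.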

Additional observations from a re-analysis of the deposited data

How the results depend on the processing

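Over 19 alternatives, RPL37 and RPL26L1 kept their direction and passed each time, and RNASEH1 did so as well. The canonical counts, 16 lower and 2 higher, were 7 and 4 with library size alone, 9 and 5 with the offset for expression level, and 1 and 3 when libraries were scaled by the canonical genes themselves, which by construction centres them. RPL12, RPS29 and RPL23A missed the threshold only under that last scaling, with adjusted p from 0.0562 to 0.0954. Library size alone left 1433 genes lower over the whole table and scaling by the canonical genes 750, against 2418, with all-gene medians of 0.127 and 0.139. The canonical median was -0.09 and became 0.02 under library size alone, 0.04 under the offset for expression level and 0.03 under scaling by the canonical genes, but relative to all genes it was -0.10, -0.10, 0.05 and -0.11 in these 4 fits, so the 2 scalings moved all genes alike. The median of the paralogs became 0.041 with scaling by the canonical genes, -0.10 relative to all genes. A second paralog, RPL36AL, passed with DESeq2's size factors in edgeR, limma-voom, no filter, the replicate block, both offsets and protein-coding genes alone, making 2 lower.

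Leaving out 1 library at a time gave 7 to 18 canonical genes lower and 0 to 4 higher, with medians from -0.153 to 0.019, and 1 to 2 paralogs lower and 0 to 1 higher. The lowest count came without shRNH1 replicate 2. Without shRNH1 replicate 3 there were 8 lower and 1 higher, without shControl replicate 1 9 lower and 1 higher, and without shRNH1 replicate 1 18 lower and 0 higher (edgeR; 0 is no call among 77 tested). The deviations of same-numbered libraries of the 2 groups had correlations of 0.045, 0.056 and -0.049, and those of differently numbered ones ran from -0.121 to 0.091. With 3 libraries per group these values cannot decide whether the numbers pair the libraries, and the labels state no pairing. With the replicate block 15 canonical genes were lower and 2 higher.

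The labels do not state strand use or the handling of reads that match several places, so reads of members, paralogs, pseudogenes and read-through genes cannot be told apart where they overlap or match. At 3 against 3 libraries the permutation test of a ratio cannot go below 0.1. RPL3L, at 8 to 22 counts, was too low for a firm value.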
